A study of Mus musculus with 15 samples.

Results

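Respiratory complex I (NADH:ubiquinone oxidoreductase) was followed through 35 nuclear genes, Ndufa, Ndufab, Ndufb, Ndufc, Ndufs and Ndufv, among the 19938 genes named on the arrays. A gene was a member when the platform annotation gave its probe set that symbol and no other, and it was represented by its brightest probe set over all 15 arrays. Assembly factors (Ndufaf) were not members. All 35 lay above the filter on low intensities and were among the 12056 genes tested. Ndufb1 and Ndufb4 are not analysed here.

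The arrays hold RNA from the gastrocnemius, a calf muscle, of C57BL/6 mice, all of them male and 12 months old. The 4 groups were wildtype on control diet (3 arrays), wildtype on calorie restriction (CR, 4 arrays), Sirt3 knockout on control diet (4 arrays) and Sirt3 knockout on CR (4 arrays), with a separate mouse on each array. Sirt3 encodes a mitochondrial NAD-dependent deacetylase, and complex I subunits are among its known substrates. The part of Sirt3 that was deleted, the tissues that lack it and the degree of restriction are not stated in the labels or the design text.

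Complex I oxidises NADH, passes the electrons along a chain of iron-sulphur clusters to ubiquinone and pumps protons across the inner mitochondrial membrane. It is the entry point for most electrons that reach the respiratory chain, and muscle with many mitochondria holds much of it. The N module in the matrix binds NADH, the Q module reduces ubiquinone, and the proximal and distal parts of the membrane arm pump protons. Core subunits carry out the reaction, and accessory subunits surround them and are needed for assembly and stability. The members here were 8 genes of the N module, 7 of the Q module, 9 of the proximal arm, 9 of the distal arm, the acyl carrier protein Ndufab1, and Ndufa4, which keeps its old name but is now counted with complex IV.

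No complex I subunit passed the threshold in any of 7 comparisons (limma, Benjamini-Hochberg adjusted p under 0.05 over 12056 genes). CR left the median log2 difference of the members close to 0, at 0.013 in wildtype and -0.013 in knockout mice. In knockout mice 34 of 35 members had a higher mean than in wildtype when both diets were averaged, with a median log2 difference of 0.08, or 1.06-fold. That offset was smaller than the spread between arrays for most members and was shared by the subunits of complexes II to V. It fell to 0.05 without the highest knockout array and to 0.07 without the highest and the lowest knockout control array, as set out below. In a bulk sample, a different share of mitochondria-rich fibres and a different amount of transcript per fibre cannot be told apart.

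The arrays read as fast muscle on which some libraries carried other tissues. Actin Acta1 lay between 13.21 and 13.39 and the fast myosin Myh4 between 12.70 and 12.89 on all 15, while the brown fat gene Ucp1 stayed at or below 4.84, under the filter value of 5.32. Not all 9 listed muscle fibre genes were as steady, and Mylpf ran from 11.18 to 11.92. Under CR in wildtype 1 of 9 passed, Mylpf at 0.50 (SE 0.09, limma adjusted p = 0.049), with 8 of 9 above 0. Averaged over genotypes 2 passed under CR, Mylpf and Pvalb, with 7 of 9 above 0. In limma 0 passed between genotypes. The part of these genes in the complex I values was not tested. Sirt3 itself read 6.38 to 6.68 on wildtype and 4.94 to 6.19 on knockout arrays, without overlap. Marker lists of another tissue lay over 2 log2 units above the median array on 4 arrays. These were pancreatic acinar genes on wildtype control replicate 2, male germ cell genes on replicate 3 of the wildtype controls and replicate 1 of the knockout controls, and liver genes on wildtype CR replicate 4. Below that cut-off, liver genes lay at 1.98 on knockout control replicate 2 and 1.52 on wildtype control replicate 1, against 2.82 on wildtype CR replicate 4. The cut-off therefore does not make the remaining arrays free of other tissue.

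The members moved together from array to array. The deviation of each member from its own mean over the 15 arrays was taken, and the median over the 35 members was 0.27 on knockout control replicate 3, the highest of all arrays. Every one of the 35 members lay above its own mean there, and for 25 of 35 it was the array with the highest value. Knockout CR replicate 4 came next with a median of 0.13 and 29 members above their means. The lowest medians were -0.11 on wildtype control replicate 3, -0.08 on wildtype control replicate 2, -0.08 on knockout control replicate 1 and -0.08 on wildtype CR replicate 1. All 4 arrays past the cut-off for another tissue had medians below 0. Knockout control replicate 2 and wildtype control replicate 1, with liver genes at 1.98 and 1.52, had medians of 0.03 and 0.03. The part of the other tissues' transcripts in the result was not tested.

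**Figure D1:**
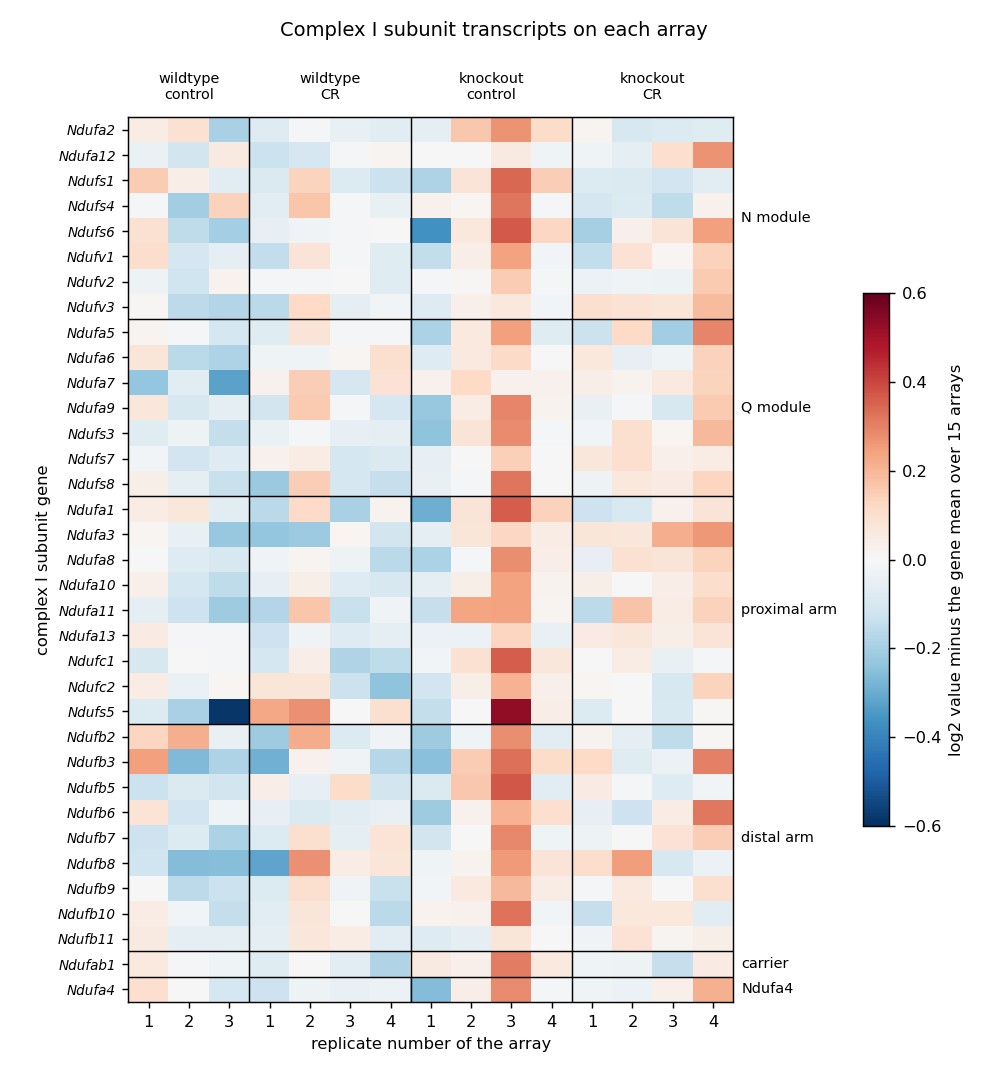
Log2 value of each of the 35 complex I subunit genes (rows, by structural module) on each of the 15 arrays (columns, by group and replicate number), as the difference from the gene's mean over all arrays. The column of knockout control replicate 3 lies above the mean in all 35 rows, and the largest single deviation is Ndufs5 on wildtype control replicate 3, at -0.58.

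This shared movement took up much of the members' variation. Subtracting the members' median on each array removed 48.5% of their sum of squares over the arrays and reduced the SD of 32 of 35 members. For all genes tested the same subtraction removed -15.1%, so their sum of squares grew, and it reduced the SD of 21.3% of them. The array median comes from the members themselves, so part of what it removed from them follows from the subtraction. After the groups were fitted, the residual SD of a member had a median of 0.12, from 0.05 for Ndufa13 to 0.21 for Ndufb3, against a median of 0.13 for all genes tested.

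The other respiratory complexes moved with complex I. On knockout control replicate 3 the median deviation of 39 subunits of complexes II to V was 0.24, and that of the complex I assembly factors was 0.22. The slow fibre list, 9 genes such as Myh7 and Myl2, had a median of -0.39 on the same array. On knockout CR replicate 4 complexes II to V lay at 0.12 and the assembly factors at 0.02. So complex I did not stand alone on these arrays. The slow fibre list had 0 of 9 genes past the threshold in limma in each comparison. It also had 0 at an unadjusted limma p under 0.05, where the share of all genes ran from 5.71% to 20.1%. Its median was -0.33 with 1 of 9 above 0 for knockout minus wildtype on control diet, -0.18 with 1 of 9 above 0 averaged over diets, and -0.34 with 0 of 9 above 0 for CR in wildtype. It was -0.04 for knockout minus wildtype on CR, with 3 of 9 above 0, and for CR in knockout, with 2 of 9. Of all genes, 57.6%, 53.2%, 62.3%, 46.7% and 53% were above 0 in these comparisons, in that order. The part of the slow fibre genes in the complex I values was not tested.

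**Figure D2:**
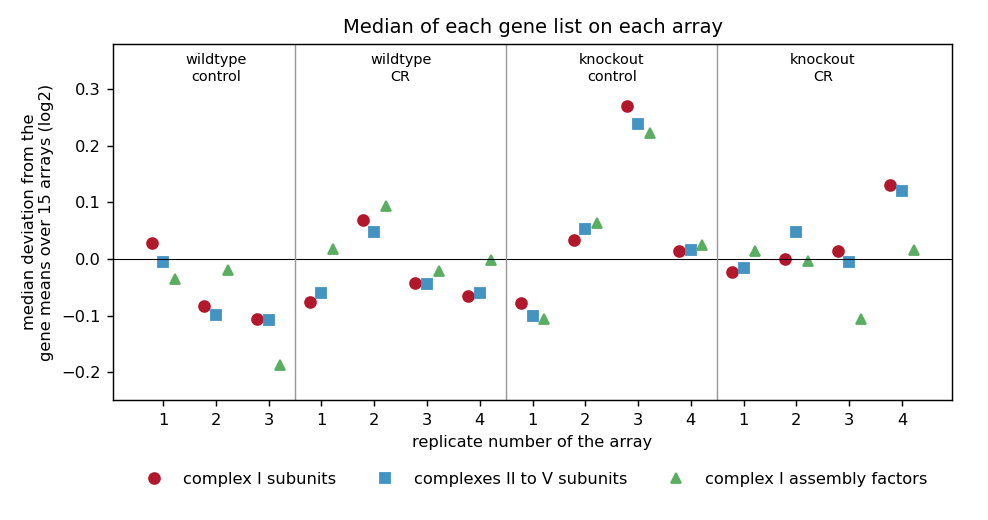
Median deviation from the gene means over 15 arrays (log2, vertical axis) on each array (horizontal axis, by group and replicate number) for complex I subunits (circles), subunits of complexes II to V (squares) and complex I assembly factors (triangles). Knockout control replicate 3 is highest for all 3 lists, at 0.27, 0.24 and 0.22.

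Because the members moved together, the bases before their transcription starts were searched for the strings of factors known to act on respiratory genes. RefSeq promoter windows of build GRCm38.p6 were found for 32 of 35 members, and the 250 bases before each annotated start were searched on both strands. The nuclear respiratory factor NRF1 string GCGCANGCG was present in 5 members (Ndufa5, Ndufa8, Ndufa11, Ndufs5 and Ndufs6), or 15.6%, against 5.86% of 27025 genes. The Ets string CCGGAAG, bound by GABPA, was present in 3 members (Ndufb6, Ndufb7 and Ndufs3), or 9.38%, against 7.83%. The string AAGGTCA of the oestrogen-related receptors was present in Ndufs5 and Ndufb2, or 6.25%, against 4.7%. The YY1 string AAGATGG was present in 0 members against 5.18% of genes. That last count depended on the window. With the 50 bases after the start added, YY1 matched 7 members, or 21.9%, against 7.28% of genes, and NRF1 matched 7, or 21.9%, against 7.03%. These 4 strings were kept from 11 that were searched first, so the counts are a description of sequence and carry no test.

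The 4 promoters given here show members with and without matches. Ndufs5, which had the largest difference under CR, holds 2 matches, and Ndufa3 and Ndufa7, the members with the smallest p between genotypes, hold none. Ndufa8 was added, after its matches were seen, as an example with 2 NRF1 matches close to the start. Each is given 5′ to 3′ on the gene's strand and ends at the base before the start, with matches in capitals. Ndufs5 lies at chr4:123718187-123718436 on the minus strand, Ndufa8 at chr2:36049339-36049588 on the minus strand, Ndufa3 at chr7:3617123-3617372 on the plus strand and Ndufa7 at chr17:33824322-33824571 on the plus strand.
Ndufs5: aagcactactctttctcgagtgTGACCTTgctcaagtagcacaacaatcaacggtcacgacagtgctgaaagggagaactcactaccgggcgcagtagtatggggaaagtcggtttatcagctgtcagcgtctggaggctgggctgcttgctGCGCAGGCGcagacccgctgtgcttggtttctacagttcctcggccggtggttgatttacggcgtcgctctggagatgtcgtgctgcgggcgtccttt
Ndufa8: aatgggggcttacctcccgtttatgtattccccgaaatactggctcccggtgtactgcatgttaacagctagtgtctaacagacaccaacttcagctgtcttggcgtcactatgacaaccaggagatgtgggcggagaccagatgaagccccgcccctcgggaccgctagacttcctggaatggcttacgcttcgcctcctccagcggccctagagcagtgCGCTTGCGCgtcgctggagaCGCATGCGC
Ndufa3: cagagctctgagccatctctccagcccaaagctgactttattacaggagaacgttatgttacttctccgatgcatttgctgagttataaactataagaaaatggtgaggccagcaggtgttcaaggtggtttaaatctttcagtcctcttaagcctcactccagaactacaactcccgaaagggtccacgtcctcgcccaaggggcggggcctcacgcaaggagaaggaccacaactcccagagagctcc
Ndufa7: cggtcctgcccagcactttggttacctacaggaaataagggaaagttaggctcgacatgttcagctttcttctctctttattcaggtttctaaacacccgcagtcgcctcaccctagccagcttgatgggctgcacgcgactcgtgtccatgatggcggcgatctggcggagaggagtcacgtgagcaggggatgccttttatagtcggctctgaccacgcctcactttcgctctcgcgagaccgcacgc

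CR was first compared with control diet within each genotype. In wildtype muscle 0 of 35 members passed (smallest limma adjusted p = 0.19), where 0.124% of all genes did. At an unadjusted limma p under 0.05 there were 2 members, or 5.71%, against 13.1% of genes. The members' differences ran from -0.12 to 0.44 with 20 of 35 above 0, or 57.1% against 62.3% of genes, and their median of 0.013 lay below the median of all genes, 0.04. The 95% interval lay within 0.5 log2 units of 0 for 34 of 35 members, against 81.9% of genes. In knockout muscle 0 of 35 passed (smallest limma adjusted p = 0.368, background 0.0664%), and 1 member, or 2.86%, reached an unadjusted limma p under 0.05 against 12% of genes. There the differences ran from -0.18 to 0.11, with 14 of 35 above 0, or 40% against 53% of genes. Single arrays moved that balance either way. It turned without knockout control replicate 3, where 26 of 35 were above 0 with a median of 0.06. It went further below without knockout control replicate 1, at 7 of 35 with a median of -0.06, and without knockout CR replicate 4, at 8 of 35. In wildtype the count above 0 ran from 15 without wildtype control replicate 3 or wildtype CR replicate 2 to 26 without wildtype control replicate 1. The 95% interval lay within 0.5 log2 units of 0 for all 35, against 85.9% of genes.

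Ndufs5, an accessory subunit on the intermembrane face of the proximal arm, had the largest difference. Its log2 values were 7.41, 7.29 and 6.91 on the wildtype control arrays and 7.72, 7.76, 7.49 and 7.58 on the wildtype CR arrays. They were 7.35, 7.49, 8.02 and 7.53 on the knockout control arrays and 7.41, 7.49, 7.40 and 7.49 on the knockout CR arrays. The wildtype CR arrays all lay above the wildtype control arrays, while the knockout groups overlapped, and the extremes of the whole set were wildtype control replicate 3 and knockout control replicate 3. The difference under CR was 0.44 (SE 0.14, limma adjusted p = 0.221) in wildtype animals, against -0.15 (SE 0.13, limma adjusted p = 0.669) in the knockouts. The difference between these responses was -0.59 (SE 0.20, limma adjusted p = 0.824). Without knockout control replicate 3 the knockout difference was -0.0087. Without wildtype control replicate 3 the wildtype difference was 0.29 (limma adjusted p = 0.613), and without the 4 arrays with another tissue it was 0.25 (limma adjusted p = 0.846).

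Ndufa7, an accessory subunit of the Q module, had the smallest p under CR in wildtype. It read 8.09, 8.26 and 7.998 on wildtype control arrays and 8.35, 8.47, 8.22 and 8.41 on wildtype CR arrays. Knockout control arrays read 8.35, 8.44, 8.35 and 8.35, and knockout CR arrays 8.36, 8.34, 8.38 and 8.46. The 3 wildtype control arrays were low, with an overlap with wildtype CR at 1 array, and both knockout groups lay at the level of wildtype CR. The difference under CR was 0.25 (SE 0.07, limma adjusted p = 0.19) in wildtype animals, against 0.01 (SE 0.07, limma adjusted p = 0.952) in the knockouts, and the difference of the responses was -0.23 (SE 0.10, limma adjusted p = 0.843).

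Ndufb8, an accessory subunit of the distal arm often used as a marker of assembled complex I, came next by p in wildtype. Its values were 9.45, 9.31 and 9.31 on wildtype control and 9.25, 9.84, 9.61 and 9.64 on wildtype CR arrays. On knockout control they were 9.54, 9.59, 9.82 and 9.65, and on knockout CR 9.67, 9.82, 9.47 and 9.53. Wildtype CR replicate 1 lay below every wildtype control array, so the wildtype groups overlapped. The difference under CR was 0.23 (SE 0.12, limma adjusted p = 0.43) in wildtype animals, against -0.03 (SE 0.11, limma adjusted p = 0.944) in the knockouts. The wildtype value was 0.14 without wildtype CR replicate 2 and 0.34 without wildtype CR replicate 1, and 0.12 without the 4 arrays with another tissue.

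The members with the smallest p under CR in knockout mice all had negative differences. Ndufa2, a small thioredoxin-like subunit of the N module, read 8.70, 8.92, 9.02 and 8.86 on knockout control and 8.77, 8.66, 8.67 and 8.68 on knockout CR arrays, against 8.80, 8.85 and 8.56 on wildtype control and 8.68, 8.75, 8.71 and 8.69 on wildtype CR. Knockout control replicate 1 lay among the CR arrays, so the knockout groups overlapped. The difference was -0.18 (SE 0.08, limma adjusted p = 0.368), and -0.13 (limma adjusted p = 0.60) without knockout control replicate 3.

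Ndufab1, the mitochondrial acyl carrier protein that sits in complex I and also serves fatty acid and lipoate synthesis, followed. It read 9.14, 9.12, 9.40 and 9.15 on knockout control and 9.06, 9.06, 8.95 and 9.14 on knockout CR arrays. Wildtype arrays read 9.15, 9.08 and 9.06 on control diet and 9.02, 9.09, 9.02 and 8.91 on CR. Knockout control replicate 3 stood above all others, and 1 CR array lay within the range of the controls. The difference was -0.15 (SE 0.07, limma adjusted p = 0.418) in the knockouts and -0.12 (SE 0.05, limma adjusted p = 0.229) over both genotypes. Without knockout control replicate 3 these were -0.08 (limma adjusted p = 0.651) and -0.08 (limma adjusted p = 0.292).

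Ndufs1, the largest core subunit and a carrier of iron-sulphur clusters in the N module, came after these. Its values were 9.05, 9.32, 9.58 and 9.38 on knockout control and 9.16, 9.15, 9.12 and 9.17 on knockout CR arrays. They were 9.39, 9.28 and 9.17 on wildtype control and 9.15, 9.37, 9.16 and 9.11 on wildtype CR arrays. The knockout CR arrays were close together inside the range of the knockout controls. The difference under CR in knockout mice was -0.18 (SE 0.10, limma adjusted p = 0.47), and -0.10 without knockout control replicate 3 (limma adjusted p = 0.702).

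Ndufv1, the core subunit that binds NADH and the flavin, showed the flat pattern of most members. It read 10.22, 10.01 and 10.05 on wildtype control, 9.97, 10.19, 10.11 and 10.04 on wildtype CR, 9.96, 10.15, 10.36 and 10.10 on knockout control, and 9.97, 10.20, 10.13 and 10.25 on knockout CR arrays. All 4 groups overlapped. The difference under CR was -0.02 (SE 0.10, limma adjusted p = 0.944) in wildtype animals, against -0.01 (SE 0.09, limma adjusted p = 0.985) in the knockouts.

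Groups without overlap were few under CR. In wildtype mice Ndufs5 and Ndufb7, a distal arm subunit with cysteine pairs, lay higher on every CR array, where 9.55% of all genes did so, and Ndufa13 lay lower, where 2.95% did. In knockout mice Ndufv3 alone lay higher on every CR array, where 3.91% of genes did, and 0 members lay lower, where 3.08% did. Ndufv3, an accessory subunit of the N module, read 6.96, 7.07, 7.10 and 7.02 on knockout control and 7.14, 7.13, 7.11 and 7.23 on knockout CR arrays. On wildtype control it read 7.04, 6.88 and 6.86, and on wildtype CR 6.88, 7.16, 6.98 and 7.02. Its difference was 0.11 (SE 0.07, limma adjusted p = 0.54) in the knockouts, and 0.10 (SE 0.05, limma adjusted p = 0.291) over both genotypes. The latter was 0.023 without the 4 arrays with another tissue (limma adjusted p = 0.947).

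Averaged over genotypes, the CR difference of the members was centred on 0. Its median was 0.001 against 0.03 for all genes, 18 of 35 members were above 0, or 51.4% against 59.5% of genes, and 0 passed (smallest limma adjusted p = 0.176) where 1.07% of genes did. At an unadjusted limma p under 0.05 there were 2 members, Ndufa7 above 0 and Ndufab1 below, or 5.71% against 20.1% of genes. The 95% interval lay within 0.25 log2 units of 0 for 30 of 35 members, or 85.7%, against 55.4% of genes. It lay within 0.5 units for all 35, against 91.3% of genes. The widest bounds were -0.29 for Ndufs1 and 0.35 for Ndufs5, so a change of 0.5 log2 units in either direction lay outside the interval of every member. The median turned to -0.06 with 7 of 35 above 0 without the 4 arrays with another tissue, and to 0.03 with 26 of 35 above 0 without knockout control replicate 3, again with 0 past the threshold.

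By module the averaged CR differences ran both ways. The N module had 4 of 8 members above 0, from -0.13 for Ndufs1 to 0.10 for Ndufv3. The Q module had 5 of 7 above 0, with a median of 0.04. The proximal arm had 5 of 9 above 0 and the distal arm 4 of 9, with medians of 0.007 and -0.0017. Ndufa4 lay at -0.01. The 6 members of the reaction core had 3 above 0 and 3 below.

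Whether the diet response differed between genotypes was tested as the interaction. It passed for 0 of 35 members (smallest limma adjusted p = 0.824) and for 0% of all genes. At an unadjusted limma p under 0.05 there were 2 members, Ndufs5 and Ndufa7, or 5.71% against 5.71% of genes, which is the background share. The median of the members was -0.04 against -0.03 for all genes, with 14 of 35 above 0, or 40% against 43.1% of genes. Without knockout control replicate 3 the median was 0.04 with 23 of 35 above 0, and without knockout control replicate 1 it was -0.09 with 6 of 35 above 0. The count was 7 of 35 without wildtype control replicate 1 and 9 of 35 without knockout CR replicate 4. This comparison is the least precise: the 95% interval lay within 0.25 log2 units for 4 of 35 members, against 7.07% of genes, and within 0.5 for 33, against 69.1%.

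**Figure D3:**
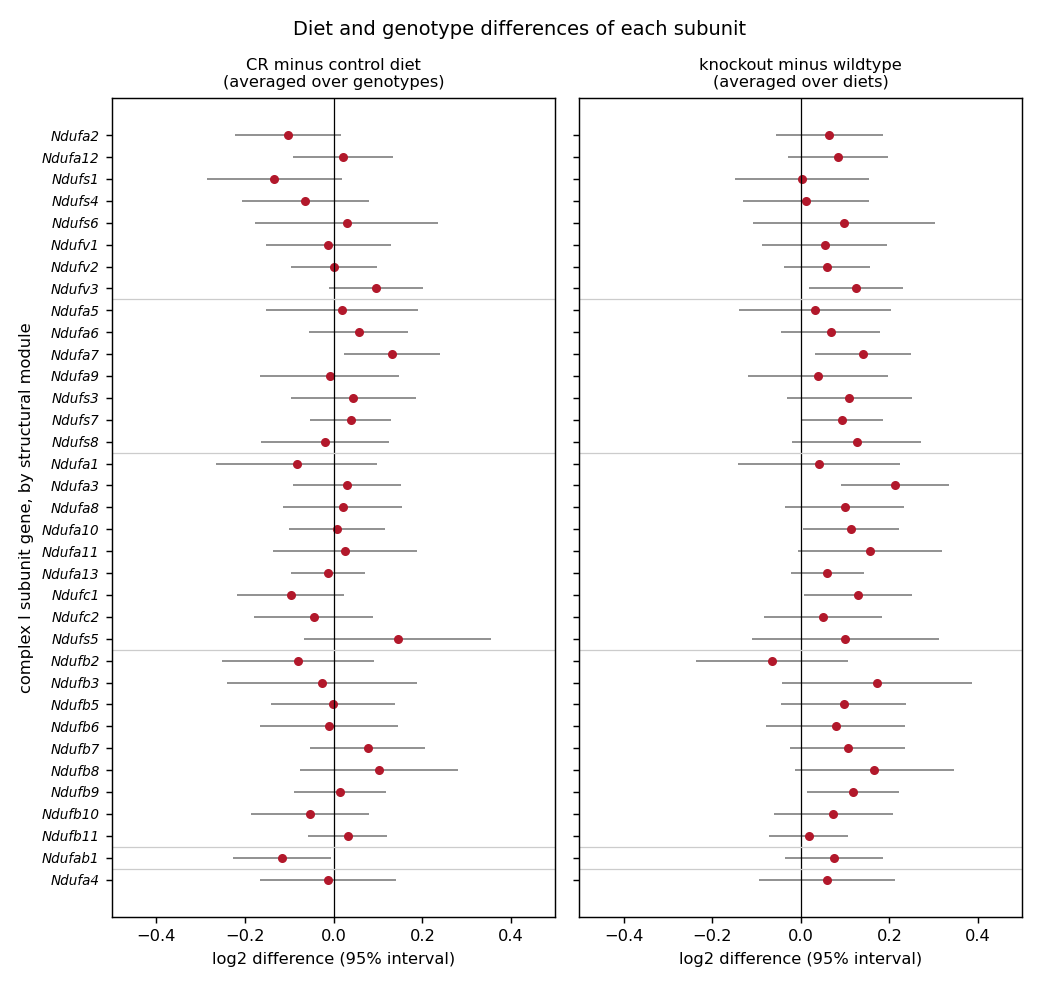
Log2 difference of each complex I subunit gene (points) with its 95% interval from the limma fit (lines), for CR minus control diet averaged over genotypes (left) and knockout minus wildtype averaged over diets (right), ordered by module. The left points scatter around 0 from -0.13 to 0.14, and 34 of the 35 right points lie above 0 at up to 0.21.

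Knockout was then compared with wildtype on each diet. The comparisons on control diet share the wildtype control arrays with the CR comparison above, so their values stand side by side and neither supports the other. On control diet 33 of 35 members were above 0 with a median of 0.11, against a median of 0.02 for all genes, 57.6% of which were above 0. None of the 35 passed (smallest limma adjusted p = 0.599), and 0% of all genes did. At an unadjusted limma p under 0.05 there were 4 members, Ndufa7, Ndufs5, Ndufb8 and Ndufb9, or 11.4% against 7.03% of genes. The 95% interval lay within 0.25 log2 units of 0 for 7 of 35, or 20% against 29.6% of genes, and within 0.5 for 33, against 85.5%. On CR 29 of 35 members were above 0 with a median of 0.06, against -0.0081 for all genes, 46.7% of which were above 0. Again 0 of 35 passed (smallest limma adjusted p = 0.605, background 0.0166%), and 2 members, Ndufa3 and Ndufa13, had an unadjusted limma p under 0.05, or 5.71% against 5.92%. The interval lay within 0.25 units for 15 of 35, or 42.9% against 38.1% of genes, and within 0.5 for all 35, against 89.1%.

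On control diet the leading members were those already low on the wildtype control arrays. Ndufa7 lay higher on all 4 knockout control arrays than on any wildtype control array, at 0.26 (SE 0.07, limma adjusted p = 0.599), and at 0.20 without wildtype control replicate 3 (limma adjusted p = 0.722). Ndufb8 also lay apart, at 0.29 (SE 0.12, limma adjusted p = 0.666), and at 0.23 without knockout control replicate 3 (limma adjusted p = 0.922). These were 2 members whose groups lay apart upward, where 3.71% of all genes did so, and 0 lay apart downward, where 1.29% did. Ndufs5 differed by 0.39 (SE 0.14, limma adjusted p = 0.638) with overlapping groups, and by 0.25 without knockout control replicate 3 (limma adjusted p = 0.922) or without wildtype control replicate 3, a drop of over 1.5 times.

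On CR the leading member was Ndufa3, a small membrane subunit of the proximal arm. It read 10.63, 10.57 and 10.39 on wildtype control and 10.39, 10.40, 10.63 and 10.51 on wildtype CR arrays. It read 10.56, 10.69, 10.74 and 10.66 on knockout control and 10.69, 10.68, 10.83 and 10.87 on knockout CR arrays. The CR groups did not overlap, while the control groups did. The difference was 0.29 (SE 0.08, limma adjusted p = 0.605) on CR and 0.13 (SE 0.08, limma adjusted p = 0.785) on control diet. Over both diets it was 0.21 (SE 0.06, limma adjusted p = 0.507, 95% interval 0.09 to 0.33), the largest averaged genotype difference of the members.

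Ndufa13, also known as GRIM-19 and placed in the proximal arm, had the smallest residual spread of the members. It read 9.51, 9.46 and 9.46 on wildtype control, 9.34, 9.44, 9.39 and 9.41 on wildtype CR, 9.43, 9.43, 9.59 and 9.42 on knockout control, and 9.51, 9.53, 9.50 and 9.54 on knockout CR arrays. The wildtype CR arrays were the lowest group and the knockout CR arrays a tight high group, and they did not overlap. Ndufa13 and Ndufa3 were the 2 members apart on CR, where 1.84% of genes lay apart upward, and 0 members lay apart downward, where 2.76% did. The difference of Ndufa13 on CR was 0.13 (SE 0.05, limma adjusted p = 0.831), and on control diet it was -0.007 (SE 0.06, limma adjusted p = 0.985).

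**Figure D4:**
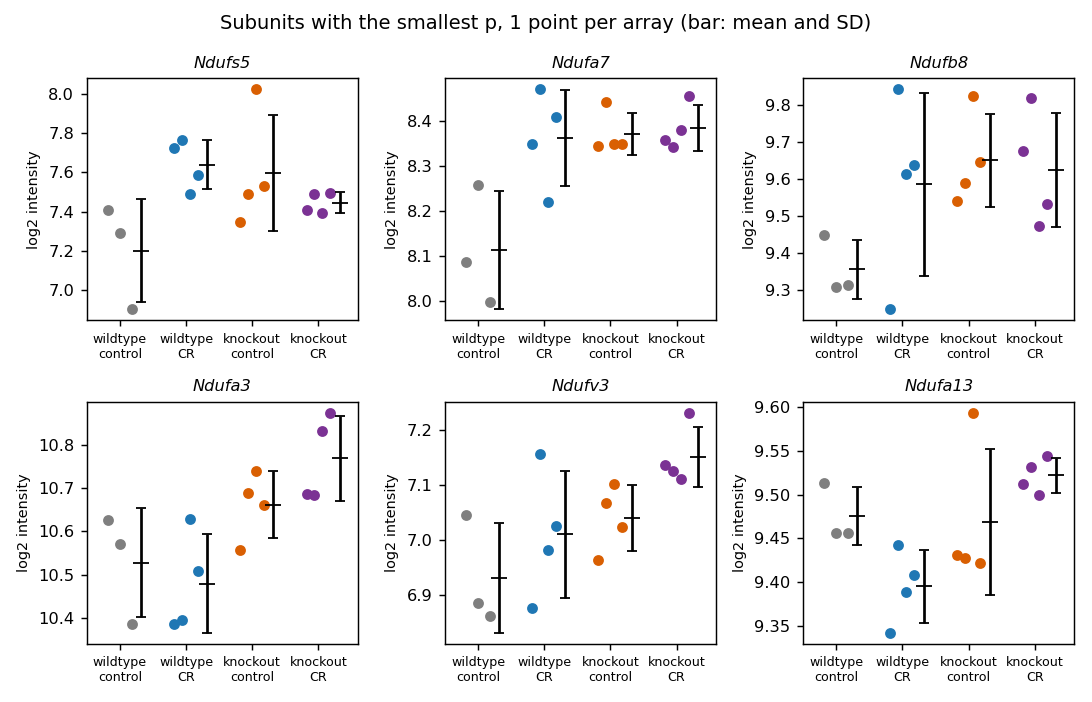
Log2 intensity (vertical axis) of 6 complex I subunit genes on each array (points) by group, with the group mean and SD beside them. Ndufs5 and Ndufa7 are lowest on wildtype control arrays, at means of 7.20 and 8.11, and Ndufa3, Ndufv3 and Ndufa13 are highest on knockout CR arrays, at means of 10.77, 7.15 and 9.52. Vertical axes differ between panels and do not start at 0.

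Averaged over diets, 34 of 35 members, or 97.1%, were above 0 in knockout mice, against 53.2% of all genes. The exception was Ndufb2, the dimmest member and a small distal arm subunit. The median was 0.08 with members from -0.06 to 0.21, against 0.007 for all genes. None of the 35 passed (smallest limma adjusted p = 0.507), and 0% of all genes did. At an unadjusted limma p under 0.05 there were 7 members, or 20%, against 7.18% of genes, all above 0. These were Ndufa3, Ndufa7, Ndufv3, Ndufb9, Ndufc1, Ndufa10 and Ndufs7. The members vary together from array to array, so this count is not one of 7 separate observations. The 95% interval lay within 0.25 log2 units for 26 of 35 members, or 74.3%, against 67% of genes, and within 0.5 for all 35, against 94%.

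The brightest and the dimmest member bracket the range of signal. Ndufs7, the core subunit that carries the last iron-sulphur cluster before ubiquinone, read 12.24, 12.14 and 12.18 on wildtype control and 12.28, 12.30, 12.15 and 12.17 on wildtype CR arrays. On knockout control it read 12.21, 12.25, 12.40 and 12.26, and on knockout CR 12.32, 12.36, 12.28 and 12.30. Its groups overlapped on both diets, and the genotype difference was 0.09 (SE 0.04, limma adjusted p = 0.69). Ndufb2 read 6.21, 6.30 and 6.04 on wildtype control, 5.87, 6.30, 6.00 and 6.06 on wildtype CR, 5.87, 6.06, 6.36 and 6.02 on knockout control, and 6.10, 6.02, 5.93 and 6.09 on knockout CR arrays. All its groups overlapped, with a genotype difference of -0.06 (SE 0.08, limma adjusted p = 0.887). Levels of different probe sets are not compared.

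The offset between genotypes ran through every module. The N module was above 0 in 8 of 8 members with a median of 0.06, and the Q module in 7 of 7 with a median of 0.09. The proximal arm was above 0 in 9 of 9 with a median of 0.10, and the distal arm in 8 of 9 with a median of 0.10. Ndufab1 lay at 0.07 and Ndufa4 at 0.06. The 6 nuclear core subunits had a median of 0.08, with all 6 above 0.

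How far the offset rested on single arrays was read from fits that left arrays out. Without knockout control replicate 3 the control diet median was 0.04 with 24 of 35 members above 0, against 0.11 and 33 with it. The median averaged over diets was then 0.05 with 29 of 35 above 0. Without knockout control replicate 1, the lowest knockout control array, the control diet median was 0.15 with 34 of 35 above 0. Without both of these arrays it was 0.08 with 32 of 35 above 0, and averaged over diets 0.07 with 33 of 35. Without knockout CR replicate 4 the median on CR was 0.03 with 22 of 35 above 0. Without the 4 arrays with another tissue the averaged median was 0.07 with 32 of 35 above 0.

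The subunits of complexes II to V also lay higher in knockout mice, without passing. On control diet 39 of 39 were above 0 with a median of 0.12, on CR 35 of 39 with a median of 0.07, and averaged over diets 39 of 39 with a median of 0.10. Of all genes, 57.6%, 46.7% and 53.2% were above 0 in these 3 comparisons. None of the 39 passed in limma. An unadjusted limma p under 0.05 was reached by 7, 2 and 8 of them, where 7.03%, 5.92% and 7.18% of all genes did. Under CR in wildtype 26 of 39 were above 0 with a median of 0.04, under CR in knockout 15 of 39 with a median of -0.03, and for the interaction 7 of 39 with a median of -0.04. Of all genes, 62.3%, 53% and 43.1% were above 0 there. Whether the subunits of complexes II to V differ from complex I was not tested. The leading gene was Cox8b, a muscle subunit of cytochrome oxidase. It read 12.25, 12.07 and 12.14 on wildtype control, 12.15, 12.37, 12.28 and 12.26 on wildtype CR, 12.43, 12.41, 12.64 and 12.60 on knockout control, and 12.61, 12.52, 12.76 and 12.70 on knockout CR arrays. Every knockout array lay above every wildtype array, at an averaged difference of 0.37 (SE 0.06, limma adjusted p = 0.136). Cox8b was picked for its small p. Of all genes, 3.71% lay apart upward between genotypes on control diet and 1.84% on CR, and the share apart over both diets together is not given. When each array was centred on complexes II to V, the complex I median between genotypes was -0.013 on control diet with 14 of 35 above 0, and -0.0099 averaged over diets with 16 of 35 above 0. That centring moved the median of all genes on control diet to -0.10.

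The assembly factors, which build the complex without staying in it, were 17 tested genes of 20 listed. None passed in limma in any of the 7 comparisons, and 0 to 4 had an unadjusted limma p under 0.05, where the share of all genes ran from 5.71% to 20.1%. The 4 were for knockout minus wildtype on control diet, where 7.03% of all genes did so. There 15 of 17 were above 0 with a median of 0.11, beside 57.6% of all genes. For knockout minus wildtype on CR 7 of 17 were above 0 with a median of -0.04, beside 46.7% of all genes. Under CR 15 of 17 were above 0 in wildtype and 3 of 17 in knockout mice, with medians of 0.07 and -0.07, where 62.3% and 53% of all genes were above 0. For the interaction 2 of 17 were above 0, where 43.1% of all genes were, with a median of -0.20 and a smallest limma adjusted p of 0.824. The leading factor was Ndufaf4, which acts early in assembly. It read 7.59, 7.47 and 7.43 on wildtype control, 7.84, 7.78, 7.85 and 7.78 on wildtype CR, 7.77, 7.88, 8.06 and 7.78 on knockout control, and 7.80, 7.90, 7.90 and 7.87 on knockout CR arrays. The 3 wildtype control arrays lay below all 12 others. Of all genes, 9.55% lay apart upward under CR in wildtype and 3.71% between genotypes on control diet. Ndufaf4 differed by 0.32 (SE 0.07, limma adjusted p = 0.118) under CR in wildtype and by 0.38 (SE 0.07, limma adjusted p = 0.365) between genotypes on control diet, and these share the low group. Ndufaf3 differed by -0.53 (SE 0.19, limma adjusted p = 0.258) under CR in wildtype. It read 7.74, 7.76 and 8.63 on the wildtype control arrays and 8.25 on knockout control replicate 1, so it was high on both arrays with male germ cell transcripts, and without wildtype control replicate 3 the difference was -0.24. The part of those transcripts in it was not tested. Ndufaf1 differed by -0.42 (SE 0.14, limma adjusted p = 0.271) under CR in knockout mice.

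Of the 7 subunits encoded in mitochondrial DNA, ND3 alone had a probe set with a single symbol. It read 12.33, 12.24 and 12.38 on wildtype control, 12.07, 12.21, 12.28 and 12.27 on wildtype CR, 12.20, 12.23, 12.44 and 12.26 on knockout control, and 12.33, 12.13, 12.10 and 12.19 on knockout CR arrays. The groups overlapped in each comparison. Its difference under CR was -0.11 (SE 0.08, limma adjusted p = 0.544) in wildtype animals, against -0.09 (SE 0.07, limma adjusted p = 0.624) in the knockouts, and between genotypes it was -0.03 (SE 0.05, limma adjusted p = 0.939).

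Transcription regulators of respiratory genes, 13 of 13 listed genes tested, gave 0 past the threshold in all 7 limma comparisons. At an unadjusted limma p under 0.05 there were 0 to 2, where the share of all genes ran from 5.71% to 20.1%. The 2 were for knockout minus wildtype on control diet, where 7.03% of all genes did so. Nrf1, whose string is described above, differed by 0.20 (SE 0.09, limma adjusted p = 0.387) under CR in wildtype and by 0.18 (SE 0.06, limma adjusted p = 0.157) over both genotypes. Gabpb1, a partner of GABPA, differed by -0.16 (SE 0.07, limma adjusted p = 0.40) under CR in knockout mice. The coactivator Ppargc1a differed by -0.34 (SE 0.22, limma adjusted p = 0.894) between genotypes on CR. Among 11 neighbours of complex I in NADH and redox metabolism, 0 passed in limma. An unadjusted limma p under 0.05 was reached by 0 to 2, beside the same range of 5.71% to 20.1% of all genes. Here too the 2 were for knockout minus wildtype on control diet, beside 7.03% of all genes. Dhodh, which also feeds electrons to ubiquinone, differed by 0.16 (SE 0.05, limma adjusted p = 0.119) under CR over both genotypes.

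A second probe set was available for 5 members, Ndufs3, Ndufc1, Ndufa11, Ndufab1 and Ndufb11. Over the 7 comparisons the pair gave the same sign in 31 of 35 cases. The largest disagreement was 0.10 log2 units, for Ndufc1.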

How the data were processed

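Values are log2 intensities that the authors made with RMA, per the submitters' processing notes, from 1-colour biotin-labelled arrays. No further normalization was applied. The labels state no genome build, RMA version or batch. The platform annotation named the probe sets, and genes whose mean was under 5.32, the 40th percentile of listed probe sets, were not tested.

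A limma fit (version 3.58.1, R 4.3.3) over the 15 arrays had 4 group means and 7 contrasts. Two-sided p-values were adjusted by Benjamini-Hochberg over the 12056 genes of each contrast. Errors beside differences are moderated standard errors. The fit was tested on simulated data. Figures used matplotlib 3.10.9.

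Members, gene lists and tests were chosen with earlier results of these data known. Values by array were given for the 3 members with the smallest p in each comparison, Ndufs1 and Ndufv1, and the brightest and dimmest member. For other lists the 2 genes with the smallest p were eligible. The 11 promoter strings were first counted over 300 bases; the 4 strings, the window of 250 bases and the 4 promoters shown were chosen after those counts were seen, and Ndufa8 replaced Ndufs6 among them. Alternatives changed the filter, probe set rule, scaling, prior, weights, samples, block and arrays.

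Replicate numbers were not taken to pair arrays. Correlations of same-numbered deviations ran from -0.64 to 0.50. No correlations of differently numbered arrays were set beside them, so they cannot show whether arrays were paired.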

Additional observations from a re-analysis of the deposited data

Results flagged for a closer look

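In 39 groups of 4 arrays, chance would mark about 1 in 20, and 3 were marked because a single array lay far from the others. Ndufa13 read 9.593 on knockout control replicate 3 against 9.423 to 9.431 on the other 3 knockout control arrays. Ndufab1 read 9.4 on the same array against 9.12 to 9.151. Ndufa7 read 8.442 on knockout control replicate 2 against 8.346 to 8.349. That narrow range holds tied values, since Ndufa7 had the identical value 8.34892 on knockout control replicates 3 and 4 and on wildtype CR replicate 1.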

How the results depend on the processing

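Across 28 alternative settings, 26 of them planned, no complex I subunit passed the threshold in any comparison. The 21 differences of the members with the smallest p in each comparison kept their sign. They were picked from these same data for that p, so a kept sign was likely beforehand and is no separate support. Differences near 0 did not: leaving out a single array changed the sign for 15 of 35 members under CR in wildtype, 21 under CR in knockout, 10 between genotypes on control diet and 13 on CR. Ndufv1 under CR in wildtype went to 0.04, and Ndufa13 between genotypes on control diet to 0.012, without wildtype control replicate 1. The median difference between genotypes on control diet moved to -0.013 when each array was centred on complexes II to V, a setting added after the data were seen. With the replicate number as a block, that median was 0.10 with 32 of 35 members above 0, and CR in wildtype gave 0.0095. The block changed no call of a member. The knockout offset averaged over diets kept 29 to 34 of 35 members above 0 whichever array was left out, with medians from 0.05 to 0.10. Precision is limited by 3 or 4 arrays a group, and signal over background could not be read from summarised values.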
